A study of Mus musculus with 531 samples.

Results

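The mouse genes Zfp930 to Zfp999 encode zinc finger proteins, many of them found only in rodents. They were taken as every row of the count table whose symbol is Zfp, a number in that range and nothing else, which gave 63 of 22084 genes. A further 303 genes carry Zfp and another number. In this protein family a row of C2H2 zinc fingers reads DNA, and the KRAB domain at the other end of most members recruits TRIM28 and, through it, the histone methyltransferase SETDB1. Many KRAB zinc finger proteins are known to silence retroelements in the early embryo, and their genes lie side by side in groups that arose by repeated duplication. Read from the reference coding sequence, 60 of the 63 genes had C2H2 fingers, between 2 and 21 with a median of 11, and 54 of 63 matched a pattern for the KRAB A box. No finger was found in Zfp935, Zfp957 or Zfp972. The family name therefore held for most members by sequence.

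RNA and DNA methylation had been measured in the same single cells of C57Bl/6Babr mouse embryos around implantation (E4.5 to E6.5), the days on which the epiblast leaves naive pluripotency and begins gastrulation. Here the RNA counts of 264 cells were analysed: 91 cells from 5 E4.5 embryos, 80 cells from 1 E5.5 embryo and 93 cells from 2 E6.5 embryos. The paper gives fewer E4.5 embryos for the same number of cells. The 5 used here as replicates follow the labels. No group carried a mutation or a treatment. By protocol the trophectoderm was removed from the youngest embryos, and extraembryonic tissue was dissected away from the older ones. Filtering for a minimum of 50000 reads and 2000 genes with reads retained 75 E4.5 cells, 59 E5.5 cells and 83 E6.5 cells. A kept cell held between 112008 and 8904445 reads. The kept cells together held 80415112 reads for E4.5, 94914584 for E5.5 and 138750032 for E6.5. The last stage thus had the most reads in total, but depth per kept cell was highest in the E5.5 embryo. The median was 1.51e+06 reads there, against 1.11e+06 in E6.5 cells and 918469 in E4.5 cells. No label prefix is shared between stages, so batches marked by prefix and the stages cannot be told apart. Within E4.5, embryos 1 and 2 carry another prefix than embryos 3 to 5. Expression is given in CPM (the reads of a gene scaled to a common library total), either over the summed reads of an embryo or as log2(CPM + 1) in single cells.

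Cells were grouped by clustering without the members. At E4.5 the clusters were epiblast-like (25 cells) and endoderm-like (50 cells), and at E5.5 epiblast-like (52 cells) and endoderm-like (7 cells). At E6.5 they were endoderm-like (14 cells, 12 of them from embryo 1), mesoderm-like (23 cells, all from embryo 2) and a cluster of 46 cells from both embryos that was left unnamed. In that cluster 8 of the 9 epiblast markers and 6 of the 8 markers of trophectoderm and extraembryonic ectoderm had reads in at least 50% of cells, as did 10 of the 13 endoderm markers. In the mesoderm-like cluster 9 of 9 epiblast, 8 of 8 mesoderm and 12 of 13 endoderm markers did. No cluster at E6.5 was called epiblast-like, which does not exclude epiblast cells in either. In the E5.5 epiblast-like cells 5 of the 13 endoderm markers (Gata4, Gata6, Sox17, Sox7 and Pdgfra) were at 0, while the list summed had log2(CPM + 1) from 0.54 to 14.16 (median 8.97). Repeats with other random seeds returned the same split in 19 of 19 runs for E4.5 but in 12 of 19 for each later stage. The lowest agreement with the split used (adjusted Rand index, 1 for the same split) was 0.89 at E6.5. At E5.5 it was -0.099, no better than for unrelated splits. Lineage values after E4.5 are therefore less certain, and those of E5.5 the least certain. They also depend on the clustering resolution: at 0.3 in place of 0.5, the 59 E5.5 cells formed 1 unnamed cluster, and the E6.5 cells fell into 59 trophectoderm-like and 24 mesoderm-like cells with no endoderm-like cluster.

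All 63 genes had reads in kept cells, from 1 read for Zfp957 to 41245 for Zfp979, with a median of 4433. The genes with the most reads per kept cell were Zfp979 (190 reads), Zfp985 (168), Zfp992 (137), Zfp932 (134), Zfp978 (131), Zfp936 (131), Zfp958 (124) and Zfp930 (105). A single cell held reads of 29 members (E4.5), 25 (E5.5) and 32 (E6.5) in the median, and of 18, 16 and 14 when every cell was thinned to 50000 reads. Some of these genes are near copies of each other. Of the 50-base windows in their exons, fewer than 1% occurred once in the genome for 7 members (Zfp965, Zfp966, Zfp967, Zfp968, Zfp969, Zfp973 and Zfp989), and fewer than 50% for 26 of 63. How reads that fit several places were counted is not given in the sources used here, and values of these members may be shared with their copies. Exons of 12 members overlap those of another annotated gene, among them Zfp963, Zfp973, Zfp974, Zfp983 and Zfp984.

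The clearest feature of the members was their place in the genome. In GRCm38, 16 of the 63 lie within 2.34 Mb of chromosome 4, from position 145510759 to 147848366, each within 500000 bases of the next. The other groups are 10 members on chromosome 17 (21567008 to 22867134), 4 on chromosome 7 (42579783 to 43192109), 10 in 3 groups on chromosome 2, 3 on chromosome 8 and 2 on chromosome 13. The promoters of the chromosome 4 genes are near copies too. RefSeq start sites gave a promoter for 10 of the 16 genes, of 250 bases before and 50 after the start. Among the 6 of these genes that were lower at E6.5 (below), the promoters were 83.1% to 96.2% identical in the aligned bases (median 88.6%, 15 pairs). Of the genes that were not called, the promoter of Zfp982 was 86.1% to 91.2% identical to those 6 and that of Zfp984 79.4% to 85.3%, whereas that of Zfp933 reached 57.7% at most. The start listed for Zfp993 lies 98112 bases from the annotated gene start and that for Zfp981 12893 bases, so these sequences may not be the promoters in use.

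The following 4 promoters (RefSeq, GRCm38.p6) show this likeness: Zfp979 (chr4:147642459-147642758, minus strand) and Zfp985 (chr4:147553027-147553326, plus strand) were lower at E6.5, whereas Zfp984 (chr4:147809739-147810038, minus strand) and Zfp933 (chr4:147848369-147848668, minus strand) were not called. Capitals mark the longest run of bases shared by all 6 promoters of the genes called lower.
Zfp979: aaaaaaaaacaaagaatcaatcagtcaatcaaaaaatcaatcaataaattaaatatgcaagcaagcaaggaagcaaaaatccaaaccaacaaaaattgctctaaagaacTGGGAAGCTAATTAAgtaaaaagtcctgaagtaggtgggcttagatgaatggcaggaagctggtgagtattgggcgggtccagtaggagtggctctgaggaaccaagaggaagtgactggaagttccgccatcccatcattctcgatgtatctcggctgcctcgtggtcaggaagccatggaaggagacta
Zfp985: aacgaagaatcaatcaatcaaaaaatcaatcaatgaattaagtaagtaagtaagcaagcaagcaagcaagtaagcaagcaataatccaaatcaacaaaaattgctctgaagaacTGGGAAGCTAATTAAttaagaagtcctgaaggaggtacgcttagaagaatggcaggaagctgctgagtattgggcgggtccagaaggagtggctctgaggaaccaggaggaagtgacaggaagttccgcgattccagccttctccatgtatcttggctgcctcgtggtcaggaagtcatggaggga
Zfp984: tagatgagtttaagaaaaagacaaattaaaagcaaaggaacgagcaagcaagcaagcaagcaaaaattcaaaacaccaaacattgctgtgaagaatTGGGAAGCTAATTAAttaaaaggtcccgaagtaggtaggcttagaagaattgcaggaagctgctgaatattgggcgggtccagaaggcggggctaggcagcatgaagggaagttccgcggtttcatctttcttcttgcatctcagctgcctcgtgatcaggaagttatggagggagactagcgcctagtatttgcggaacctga
Zfp933: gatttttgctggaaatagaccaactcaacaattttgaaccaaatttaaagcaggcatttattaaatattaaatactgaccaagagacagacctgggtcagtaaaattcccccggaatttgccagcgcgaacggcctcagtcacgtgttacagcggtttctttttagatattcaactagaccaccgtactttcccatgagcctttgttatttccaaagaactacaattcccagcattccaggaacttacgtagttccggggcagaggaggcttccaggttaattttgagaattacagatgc
The shared run, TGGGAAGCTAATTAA, has 15 bases and was sought on both strands. It stood in 12 of 32851 RefSeq promoters of the same length (0.0365%), and all 12 belong to genes of this stretch of chromosome 4: Zfp979, Zfp980, Zfp981, Zfp982, Zfp984, Zfp985, Zfp987, Zfp988, Zfp600, Zfp534, Rex2 and Gm13212. Because the run also stands before Zfp982, Zfp984 and Gm13212, it did not separate the genes called lower from the others. It was chosen after the expression values were seen and is a description of the sequences.

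Between E4.5 and E6.5, 11 of the 60 members that passed the filter on low counts were lower and 0 were higher (18.3% of members lower, against 2.61% lower and 3.95% higher among all 15358 genes tested; edgeR quasi-likelihood test on the reads summed per embryo, Benjamini-Hochberg adjusted p under 0.05). At an unadjusted p under 0.05 the count was 18 of 60 in either direction (30%, against 22.6% of all genes). Members had a median log2 fold change of -0.97, against 0.07 for all genes and 0.19 for the 285 other tested genes named Zfp and a number, of which 7 were higher and 6 lower. Of the 11, 10 lie in the chromosome 4 group (Zfp978, Zfp979, Zfp980, Zfp981, Zfp985, Zfp986, Zfp987, Zfp988, Zfp989 and Zfp990) and the other is Zfp958 on chromosome 8. Within the chromosome 4 group 10 of 16 were lower, with a median log2 fold change of -4.81, and of the 44 members tested elsewhere 1 was lower, with a median of -0.39. In summed CPM both E6.5 embryos lay below all E4.5 embryos in 16 of 60 members (26.7%, against 11.7% of all genes) and above all of them in 3 (Zfp933, Zfp964 and Zfp974; 5% of members, against 15.4%). Fewer cells that carry a transcript and less RNA per cell cannot be told apart in summed reads.

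**Figure D1:**
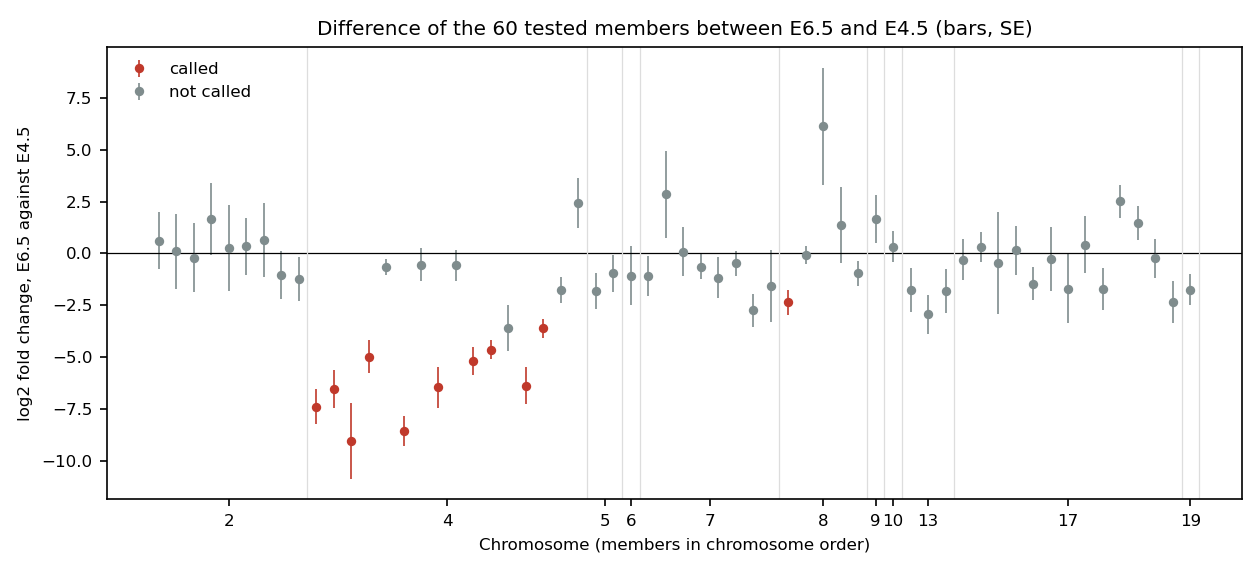
Log2 fold change between E6.5 and E4.5 (vertical axis, SE as bars) of the 60 tested members in chromosome order (horizontal axis, chromosome numbers), with red points for members that passed the test. Of the 11 red points, all below 0, 10 stand in the chromosome 4 group and 1 is on chromosome 8; the highest point, Zfp964, had no read at E4.5 and its fitted value is no bound.

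The strongest loss with ample reads was that of Zfp981. It was at 50.6, 77.9, 109, 81.7 and 66.5 CPM in the 5 E4.5 embryos, at 96.9 CPM in the E5.5 embryo, and at 0.239 and 0.111 CPM in the E6.5 embryos. Both E6.5 embryos lay far below every other embryo, with a log2 fold change of -8.56 ± 0.74 (SE; adjusted p = 1.26e-05, edgeR) against E4.5. Zfp978 went from 204, 251, 203, 204 and 138 CPM at E4.5 and 133 CPM at E5.5 to 6.22 and 7.86 CPM at E6.5 (log2 fold change -4.64 ± 0.45 against E4.5, adjusted p = 2.61e-05, edgeR). Its encoded protein had 3 fingers by the reference sequence, as did that of Zfp979, the fewest among the 10 genes.

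Zfp985 and Zfp990, of which 74.5% and 63.6% of exon windows are unique in the genome, were the best resolved of the 10. Zfp985 stood at 209, 177, 135, 308 and 343 CPM at E4.5, at 138 CPM at E5.5 and at 4.46 and 0.505 CPM at E6.5, a log2 fold change of -6.37 ± 0.88 (adjusted p = 0.000539, edgeR). Zfp990 stood at 60.2, 26.6, 61.8, 44.5 and 59.3 CPM at E4.5, at 10.7 CPM at E5.5 and at 0.358 and 0.158 CPM at E6.5 (-7.39 ± 0.82, adjusted p = 0.000103, edgeR). In both genes the E6.5 embryos were the lowest, and in Zfp990 the E5.5 embryo also lay below every E4.5 embryo, a difference that missed the threshold (adjusted p = 0.239, edgeR).

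Zfp979 kept the most reads at E6.5 of the 10 relative to E4.5. Its levels were 122, 204, 214, 180 and 245 CPM at E4.5, 245 CPM at E5.5, and 14.8 and 13.1 CPM at E6.5 (-3.62 ± 0.45, adjusted p = 0.000249, edgeR). It had reads in 98.7% of E4.5 cells and 85.5% of E6.5 cells, and in 94.7% and 45.8% after thinning each cell to 50000 reads. Zfp986 lay at the other end: 460 reads in the E4.5 cells and 1570 in the E5.5 cells faced 1 read at E6.5. Its rate per read was 794 times higher at E4.5 than at E6.5, with an exact interval from counting error alone of 142 to 31417, since 1 read bounds it poorly. Zfp980, Zfp987, Zfp988 and Zfp989 lay between, with log2 fold changes of -6.55 ± 0.92, -4.98 ± 0.78, -5.19 ± 0.67 and -6.47 ± 0.97 against E4.5. For Zfp986, Zfp987 and Zfp989 fewer than 8% of windows are unique (7.88%, 5.65% and 0.651%), so their values are the least certain.

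**Figure D2:**
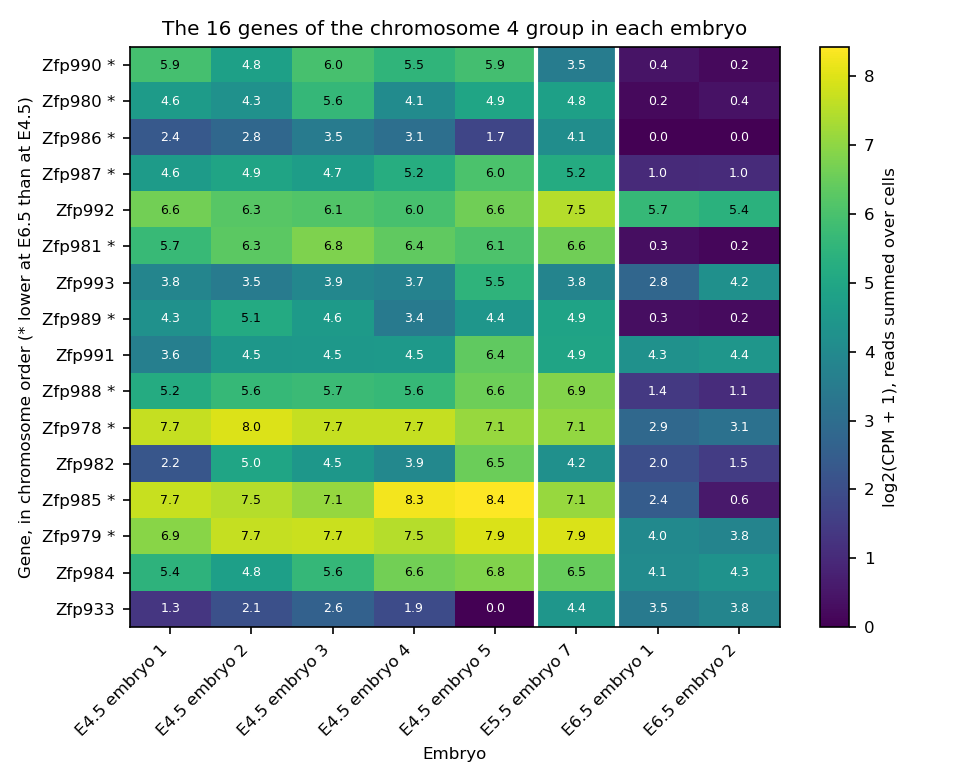
Heat map of log2(CPM + 1) from reads summed over all retained cells of an embryo (columns) for the 16 genes of the chromosome 4 group in chromosome order (rows, asterisks for genes that fell between E4.5 and E6.5). In each row with an asterisk both E6.5 embryos are darker than the 5 E4.5 embryos and the E5.5 embryo; levels differ between rows, and Zfp986 at E4.5 (2.36 to 10.3 CPM) is darker than Zfp979 at E6.5 (14.8 and 13.1 CPM).

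Of the 6 genes that were not called, Zfp992, Zfp993, Zfp991 and Zfp982 lie between called genes, and Zfp984 and Zfp933 are the last of the group. Zfp992, between Zfp987 and Zfp981, was at 99.1, 75.2, 69.5, 62.3 and 96.9 CPM at E4.5, 181 CPM at E5.5, and 49.6 and 40.8 CPM at E6.5. Its E6.5 values were below every E4.5 value, yet the log2 fold change of -0.65 ± 0.38 missed the threshold (95% interval -1.47 to 0.18). For Zfp991 and Zfp993 the log2 fold changes were -0.58 ± 0.73 and -0.55 ± 0.79, and the embryos of the stages overlapped. Zfp982 (-3.59 ± 1.11, adjusted p = 0.0669, edgeR) and Zfp984 (-1.78 ± 0.62, adjusted p = 0.106, edgeR) lay below all E4.5 embryos at E6.5 but did not pass. Zfp933 had a difference of the other sign that did not pass the test (2.42 ± 1.20, adjusted p = 0.244, edgeR). These 6 did not stand apart from the called genes in the uniqueness of their exons (median 27.8% of windows, against 26.5%) or in fingers (median 11, against 11.5). Besides the members, the stretch holds 6 other tested genes, and 4 of them (Zfp600, Gm21411, Rex2 and Zfp534) were also lower at E6.5 in both comparisons.

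Between E5.5 and E6.5 the same 11 genes were lower and 0 of 60 were higher (background 0.286% lower and 0.0977% higher; 20 of 60 members, 33.3%, had an unadjusted p under 0.05, against 7.88% of all genes). Both comparisons use the same E6.5 embryos, and E5.5 is 1 embryo that was assumed to vary like the others. The log2 fold changes of the 10 chromosome 4 genes ran from -4.11 ± 0.53 (Zfp979) to -9.05 ± 0.79 (Zfp981), leaving out Zfp986 with its 1 read. Fits by lineage (below) gave fewer calls, and in endoderm-like cells alone some of these genes turned sign without passing. This comparison is the less stable one: without the first E6.5 embryo 7 members were lower, and without the second 5.

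Between E4.5 and E5.5, 0 members were lower and 1 was higher, Zfp930, a share near that of all genes (1.67% of members; background 0.853% lower and 0.918% higher; 8 of 60 members, 13.3%, had an unadjusted p under 0.05, against 15.2% of all genes). Zfp930 (chromosome 8, 69209038 to 69230536, plus strand) encodes a protein with 12 fingers and a KRAB pattern. In summed reads it stood at 32.4, 42.9, 23.3, 47.6 and 30.7 CPM at E4.5, at 165 CPM at E5.5 and at 24.2 and 35.7 CPM at E6.5, so that only the E5.5 embryo stood apart (log2 fold change 2.38 ± 0.50, adjusted p = 0.0240, edgeR). Single cells gave another order: the mean log2(CPM + 1) was 2.88 ± 0.76 (SD, n = 5 embryos) at E4.5, 3.64 in the E5.5 embryo and 4.23 ± 0.20 (n = 2) at E6.5, and 54.7%, 62.7% and 84.3% of cells had reads. The call was lost without the first E4.5 embryo (adjusted p = 0.0525, edgeR) and when endoderm-like cells were left out (log2 fold change 1.44, adjusted p = 0.422, edgeR).

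Zfp958 (chromosome 8, 4613167 to 4630231, plus strand, 13 fingers) showed a like gap between scales. Its summed reads gave 192, 56.8, 57.5, 78.2 and 64.9 CPM at E4.5, 192 CPM at E5.5, and 21.4 and 8.31 CPM at E6.5, with the E6.5 embryos the lowest (-2.36 ± 0.59, adjusted p = 0.0272, edgeR). The mean log2(CPM + 1) over cells was however 3.52 ± 0.44 (SD, n = 5) at E4.5, 3.19 in the E5.5 embryo and 3.42 ± 0.68 (n = 2) at E6.5, and 62.7% of E4.5 cells and 79.5% of E6.5 cells had reads. Its call was lost without the second E6.5 embryo (log2 fold change -1.83, adjusted p = 0.268, edgeR) and under the stricter cell filter (-1.74, adjusted p = 0.102, edgeR). Without endoderm-like cells the difference was larger with a larger error (-3.64 ± 1.02) and did not pass (adjusted p = 0.0691, edgeR), and in endoderm-like cells alone it was -0.62 ± 0.77 (adjusted p = 0.761, edgeR).

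Among other abundant members, Zfp936 on chromosome 7 came close to the threshold, with 39.7, 62.9, 59.6, 99.3 and 158 CPM at E4.5, 191 CPM at E5.5, and 20 and 2.40 CPM at E6.5 (-2.74 ± 0.80, adjusted p = 0.0549, edgeR). Zfp932 on chromosome 5 varied too much between E4.5 embryos, from 4.13 to 114 CPM, for its E6.5 values of 26.2 and 26.5 CPM to be told from them. None of the 10 members of the chromosome 17 group passed a stage comparison over all cells, and their median log2 fold change between E6.5 and E4.5 was -0.07.

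The same reads were also viewed per cell for the chromosome 4 group, which is no separate support. With the reads of its 16 members summed, log2(CPM + 1) ranged from 6.08 to 12.2 at E4.5 (median 9.75), from 4.62 to 12.1 at E5.5 (median 9.78) and from 0 to 8.47 at E6.5 (median 6.74). The stages overlapped between cells, but the median of each E6.5 embryo (6.82 and 6.64) lay below the median of every E4.5 embryo (9.33 to 10.1). For the 10 called genes alone, which were chosen on these reads, the medians were 9.28, 9.25 and 4.41, and a cell held reads of 9, 8 and 3 of them. For the 6 others they were 7.56, 7.94 and 6.28, and a cell held reads of 5 at each stage.

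**Figure D3:**
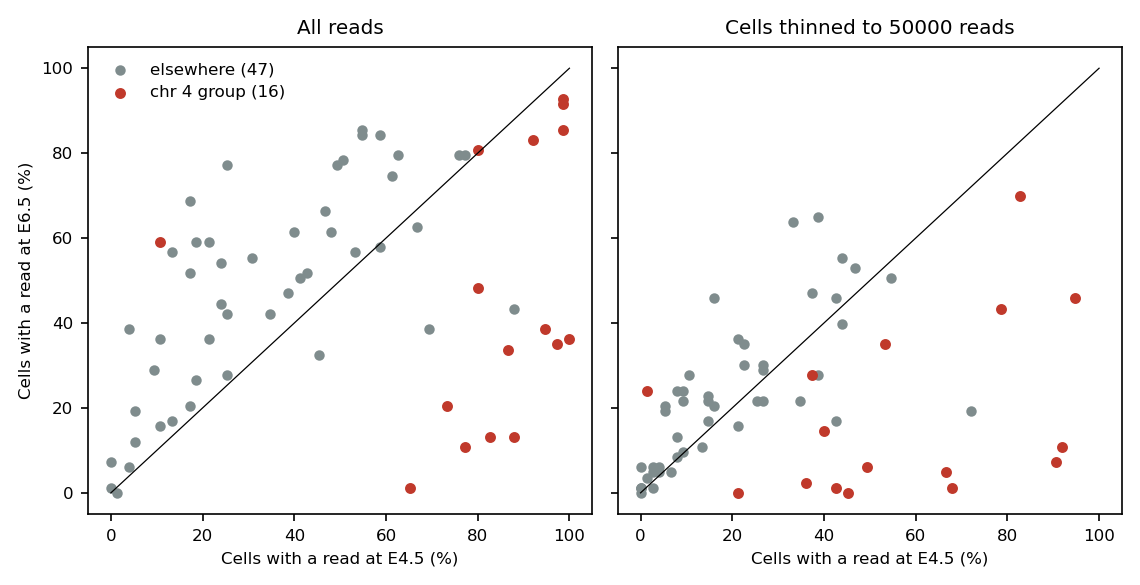
Share of kept cells with at least 1 read at E4.5 (horizontal axis) and at E6.5 (vertical axis) for each of the 63 members, from all reads (left) and after thinning each cell to 50000 reads (right), with a line of equal shares. The chromosome 4 genes (red) reach into the lower right, down to Zfp986 with 65.3% of cells at E4.5 and 1.20% at E6.5, while members elsewhere (grey) include Zfp930 above the line at 54.7% and 84.3%.

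A gene was counted as seen at a stage when at least 5% of the kept cells had a read. By that measure 56 of 63 members were seen at all 3 stages, 4 at 2 stages, 1 at a single stage and 2 at none. The only member limited to 1 stage was Zfp964 on chromosome 8, which has 9 fingers and no KRAB match. It had reads in 7.23% of cells at E6.5 (6 of 83, 95% exact interval 2.70 to 15.1), in 1.69% at E5.5 (1 of 59) and in 0 of 75 cells at E4.5, which by the floor of 3 counts allows a share of up to 4%. These limits cover counting error only. In reads it was in fact most abundant in the E5.5 embryo, where 1 cell held 88 reads, at least 24.9-fold higher per read than the floor of 3 counts over the E4.5 cells, and none of its stage comparisons passed. The call of Zfp964 as limited was lost without the second E6.5 embryo, after thinning and at a minimum of 10% of cells; other members met the definition under those last settings.

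The 4 members seen at 2 stages were Zfp986, which fell below 5% at E6.5 (65.3%, 40.7% and 1.20% of cells from E4.5 to E6.5), Zfp947, which fell below it at E5.5 (18.7%, 3.39% and 26.5%), and Zfp974 and Zfp968, below it at E4.5. For Zfp974 the share was 4% at E4.5, 6.78% in the E5.5 embryo and 38.6% at E6.5, and 0%, 5.08% and 6.02% after thinning to 50000 reads. Zfp957 (1 read in 1 E4.5 cell) and Zfp967 (6 reads in 1 E6.5 cell) were seen at none. When all cells were thinned to 50000 reads, 7 members were seen at E4.5 and E5.5 but not at E6.5 (Zfp972, Zfp980, Zfp981, Zfp986, Zfp988, Zfp989 and Zfp990), 6 of them in the chromosome 4 group. How many of all genes did so was not counted, so these numbers describe the members only.

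Within E4.5 embryos the members differed between lineages as well. These clusters come from the same cells, so the differences are a description with no test. Of the 61 members with reads at E4.5, 17 (27.9%) were lower in endoderm-like than in epiblast-like cells in every one of the 5 embryos and 3 (4.92%) were higher, against 7.82% and 11.3% of the 15471 genes with reads. On summed CPM 11 were lower and 3 higher, against 1054 and 1815 of the 15471 genes. After thinning 16 were lower and 1 higher, against 928 and 1309 of these genes. The chromosome 4 group gave 12 of the 17, and on the mean over cells all 11 members called lower at E6.5 were among them. The same share among all genes called lower at E6.5 was not computed, so this overlap is a description and no result about the members. Zfp990 had the largest difference in mean log2(CPM + 1), -3.36 ± 1.0 (SD, n = 5 embryos), with -3.35, -2.91, -4.99, -2.29 and -3.24 in the single embryos. Zfp980 (-3.16 ± 1.01) and Zfp981 (-2.92 ± 1.17) followed. Reads of at least 3 of the 10 called genes were nevertheless found in 49 of 50 endoderm-like cells.

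The 3 members higher in endoderm-like cells in every embryo were Zfp948, Zfp994 and Zfp965. Zfp948, the first gene of the chromosome 17 group (21567008 to 21588699, plus strand, 15 fingers), was higher by 2.08 ± 1.24 (SD, n = 5), with 1.39, 3.41, 0.61, 3.34 and 1.65 in the single embryos. It kept this order later: its mean over cells was 5.84 in endoderm-like and 1.36 in epiblast-like cells at E5.5, and at E6.5 it was 6.2 in endoderm-like cells, 2.95 in mesoderm-like cells and 3.28 in the unnamed cluster. Zfp994, also on chromosome 17, was higher by 0.81 ± 0.36, and Zfp965, whose exons hold no unique window, by 0.30 ± 0.19 at levels near 0.

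**Figure D4:**
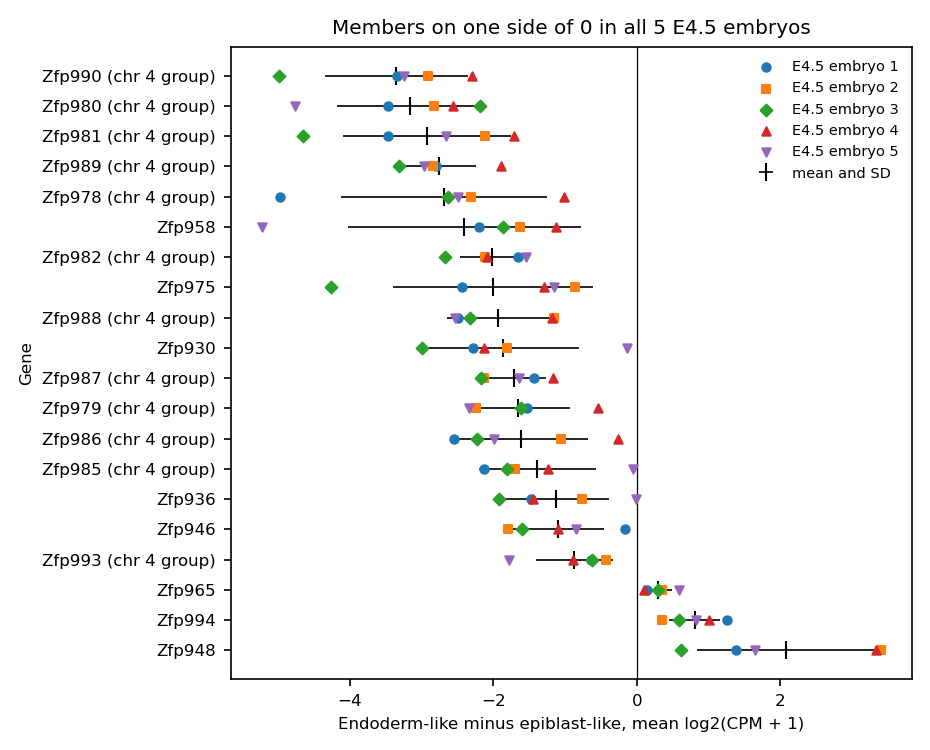
Difference in mean log2(CPM + 1) between endoderm-like and epiblast-like cells (horizontal axis) in each of the 5 E4.5 embryos (coloured points, with mean and SD in black) for the 20 members (vertical axis) that lay on one side of 0 in all of them. The 17 members on the left include 12 of the chromosome 4 group, led by Zfp990 at -3.36, and Zfp948 stands at the far right at 2.08.

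The share of cells in each lineage moved with the stage, from 50 endoderm-like cells of 75 at E4.5 to 7 of 59 and 14 of 83 later, so the stage comparisons were repeated by lineage, an addition made after seeing the data. Without the endoderm-like cells 10 of 59 members were lower at E6.5 than in the E4.5 embryos (background 1.50%), all of them in the chromosome 4 group, and 7 were lower than in the E5.5 embryo (background 0.196%). In endoderm-like cells alone 7 of 58 members were lower in the E6.5 than in the E4.5 embryos (12.1%, background 1.82%), again all in that group: Zfp978, Zfp979, Zfp981, Zfp985, Zfp987, Zfp988 and Zfp990. Of these 14 E6.5 cells 12 are from embryo 1. In them 8 of 9 epiblast and 7 of 8 trophectoderm markers had reads in at least 50% of cells, against 2 of 9 and 2 of 8 at E4.5. The summed lists had close medians, 9.23 against 9.45 and 7.17 against 7.15 in log2(CPM + 1). The epiblast itself could not be followed to E6.5. The cells other than endoderm-like at E6.5 are the mesoderm-like and the unnamed clusters, in which the summed trophectoderm markers had a median log2(CPM + 1) of 5.54 and 6.02, against 1.82 in the epiblast-like cells of E4.5 and 0 in those of E5.5. The summed endoderm markers had a median of 11.04 in the mesoderm-like and 12.04 in the unnamed cluster, against 11.17 and 8.97 in the epiblast-like cells of E4.5 and of E5.5. Their part in the result was not tested.

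In endoderm-like cells of the E5.5 embryo several chromosome 4 genes were already low: the mean log2(CPM + 1) of Zfp978 was 0.39, against 6.49 in the epiblast-like cells of the same embryo, and that of Zfp985 was 1.59 against 5.14. Zfp987, Zfp990 and Zfp986 had no read in these 7 cells. For the 10 called genes summed, endoderm-like cells had a median of 8.83 at E4.5, 5.02 in the E5.5 embryo and 4.43 at E6.5, whereas epiblast-like cells had 10.5 at E4.5 and 9.37 at E5.5. Among endoderm-like cells, 9 of 58 members were lower in the E5.5 than in the E4.5 embryos (15.5%, background 10.4%), 5 of them in the chromosome 4 group (Zfp978, Zfp981, Zfp985, Zfp987 and Zfp990) and 4 elsewhere (Zfp944, Zfp951, Zfp952 and Zfp954), and 2 were higher (background 4.47%), Zfp930 and Zfp965, each with reads in 2 of the 7 cells. Of the 9, Zfp987, Zfp990 and the 4 elsewhere had no read in the 7 cells. Between E5.5 and E6.5 0 of 58 were lower in these cells (edgeR, background 1.14%; 11 members, 19%, had an unadjusted p under 0.05 in either direction, against 22.8% of all genes) and 2 were higher (background 6.44%), Zfp951 and Zfp952, both against the E5.5 cells without a read. Members with no read in the 7 E5.5 cells, such as Zfp986, Zfp987, Zfp990 and the 4 elsewhere, could not be lower here. The count of 0 was therefore partly fixed in advance. These E5.5 values rest on 7 cells of 1 embryo and on a split that not every random seed returned. Whether the lineages differed in timing was not tested.

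**Figure D5:**
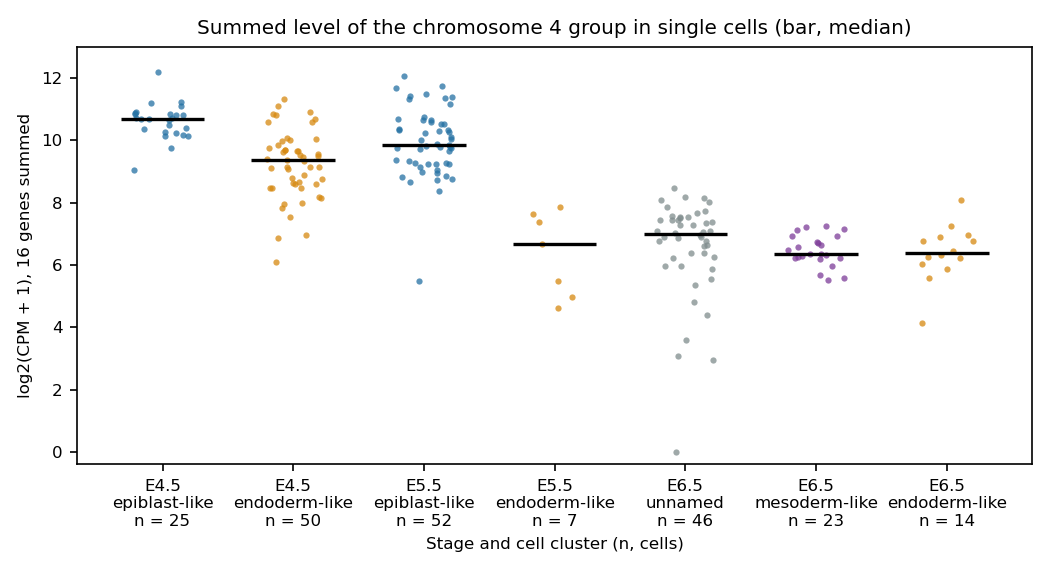
Each point is a cell, placed by stage and cluster (horizontal axis, with cell numbers) and by log2(CPM + 1) of the 16 chromosome 4 genes summed (vertical axis), with the median as a bar. The medians of epiblast-like and endoderm-like cells are 10.7 and 9.36 at E4.5 and 9.86 and 6.66 at E5.5, and 7.0, 6.35 and 6.39 at E6.5 (unnamed, mesoderm-like, endoderm-like). The 7 endoderm-like cells of E5.5 range from 4.62 to 7.88 and the E5.5 epiblast-like cells from 5.5 to 12.1, and both overlap the E6.5 cells, which reach 8.47.

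Of 16 cofactors of KRAB silencing that were tested, 1 was higher and 1 lower in the E6.5 than in the E4.5 embryos (background 3.95% higher and 2.61% lower, so 1 gene in 16 is no result about the list), and 0 passed in the other comparisons. Chd4, a remodeller in the NuRD complex, stood at 83.6, 95, 139, 75.8 and 70.2 CPM at E4.5, at 99.2 CPM at E5.5 and at 205 and 184 CPM at E6.5 (1.27 ± 0.34, adjusted p = 0.0371, edgeR). Smarcad1, a remodeller that binds TRIM28, fell by 1.55 ± 0.41 on the log2 scale (adjusted p = 0.0340, edgeR). Among 8 tested KRAB zinc finger genes of known target outside the number range, 1 was lower, likewise a count too small to set against that background: Zfp57, which guards imprinted loci, with 61, 85, 93, 22.7 and 18.7 CPM at E4.5, 11.3 CPM at E5.5, and 6.55 and 7.77 CPM at E6.5 (-2.75 ± 0.71, adjusted p = 0.0324, edgeR). Its levels at E4.5 were higher in embryos 1 to 3 than in 4 and 5, and every later value was lower than all of them.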

How the data were processed

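RNA of single mouse embryo cells was analysed; the DNA methylation libraries of the same cells were not analysed here. The authors deposited read counts per gene without normalization; the labels name GRCm38, HISAT2 2.1.0 and featureCounts without roles, and the annotation is not given in the sources used here. Groups and embryos came from the labels, which name 5 embryos for E4.5, more than the paper. Symbols came from GENCODE names (21907 of 22084 identifiers), positions and sequences from GENCODE M21 and RefSeq.

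Counts were scaled to CPM, with a pseudocount of 1 on the log2 scale. Counts summed over the kept cells of each of the 8 embryos were tested with edgeR 4.0.16 (quasi-likelihood, TMM, filterByExpr with stage as the group, Benjamini-Hochberg over 15358 genes, threshold 0.05). The embryo was the replicate, and 1 fit held all stages. DESeq2 1.42.0, limma 3.58.1, other filters and embryos left out were alternatives. Tested on simulated counts with 200 genes changed 4-fold, edgeR recovered 23.5% between E4.5 and E6.5 (14721 genes, 2 wrongly called), 11.5% between E4.5 and E5.5 (14686 genes, 2 wrongly called) and 0% between E5.5 and E6.5 (14709 genes, 0 wrongly called), and DESeq2 made 117, 249 and 163 false calls in these. Intervals are exact binomial at 95% and floors are 3 counts.

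Cells were clustered per stage with scanpy 1.11.5 (Leiden, 2000 variable genes, 20 components, resolution 0.5) on unscaled log2 values, a setting taken after several partitions had been seen. Clusters were named from fixed marker lists. Doublets were not called. Exons were cut into 50-base windows to count those found once in the genome. The members, gene lists and tests were chosen with earlier results of these data known. Named are members that passed a stage comparison (at most 10 per direction), those seen at 1 stage, the 8 with most reads, the 3 with the largest lineage difference each way, and listed cofactors and KRAB genes that passed. Zfp982, Zfp984, Zfp991, Zfp993, Zfp933, Zfp947, Zfp968, Zfp972, Zfp974, Zfp944, Zfp951, Zfp952 and Zfp954 were named after their values were seen. Zfp935, Zfp957, Zfp963, Zfp966, Zfp967, Zfp969, Zfp973 and Zfp983 are named for sequence features, overlapping exons or few reads.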

Additional observations from a re-analysis of the deposited data

Results flagged for a closer look

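Among 25 sets of values of the 5 E4.5 embryos (levels or lineage differences of named genes), 1 had an embryo far from the others, where chance gives about 1 in 20 (0.05). The mean log2(CPM + 1) of Zfp980 was 4.72 in E4.5 embryo 3 and at most 3.19 in the other embryos, a gap of 0.881 of the whole range.

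The lineage difference of Zfp994 went the other way at E5.5: endoderm-like minus epiblast-like cells gave -0.36 in mean log2(CPM + 1) in the E5.5 embryo, where 0 of 7 endoderm-like cells had a read, and 0.81 on average in the 5 E4.5 embryos. The difference between the stages was not tested.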

How the results depend on the processing

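The 23 calls of single members in the stage comparisons were refitted in 344 combinations of call and setting, of which 296 kept their direction and passed, 43 kept it without passing and 5 turned. The 5 that turned were E6.5 against E5.5 in endoderm-like cells alone (added after seeing the data), where none passed: Zfp978 (1.63), Zfp985 (0.74), Zfp987 (6.82), Zfp989 (2.74) and Zfp990 (4.43 in log2 fold change). The E5.5 arm there holds 7 cells, with no read of Zfp987 or Zfp990, so these 2 could not be lower at E6.5 and their fitted values are no bound, and with 10 reads of Zfp978, 72 of Zfp985 and 2 of Zfp989. Zfp986 had no read in either arm and gave no value there.

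For E6.5 against E4.5, 7 members were lower in endoderm-like cells alone, and 1 was higher with DESeq2 and 1 without the filter on low counts; leaving out an embryo gave 9 to 13 lower and 0 to 1 higher (1 without E4.5 embryo 2). For E5.5 against E4.5, 2 were higher with DESeq2, 2 without the filter, 2 in endoderm-like cells alone, 0 in epiblast-like cells alone and 0 without endoderm-like cells; 1 was lower with DESeq2 and 9 in endoderm-like cells alone; embryos left out gave 0 to 2 higher (0 without E4.5 embryo 1, 2 without embryo 2 or 5) and 0 to 0 lower. For E6.5 against E5.5, 5 were lower with limma on mean CPM, 7 without endoderm-like cells and 0 in endoderm-like cells alone, where 2 were higher; embryos left out gave 5 to 11 lower (7 without E6.5 embryo 1, 5 without embryo 2) and 0 higher. The causes were not tested.

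A fit with a replicate block on the embryo number gave 12 members lower and 0 higher between E4.5 and E6.5. The numbers name different embryos, and deviations of same-numbered embryos correlated by -0.027 and 0.019 across 15358 genes, so they pair nothing.

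Members seen at only 1 stage numbered 3 after thinning, 3 at 10% of cells, 2 with any read, 2 under the stricter cell filter and 0 to 1 with embryos left out. Members higher in endoderm-like cells in every E4.5 embryo numbered 1 after thinning and 3 to 5 with an embryo left out (5 without embryo 3), and members lower there 11 on summed CPM and 17 to 21 with an embryo left out. Among the 15471 genes with reads, 1980 to 2382 were higher and 1388 to 1789 lower with an embryo left out. All 63 members had reads under every cell filter. DESeq2 and the unfiltered fit may hold many false calls. The fit on epiblast-like cells was not run for E6.5, which has no such cluster. Depth limits members near 0 reads, and 1 E5.5 embryo limits every statement on that stage.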
